A study of Rattus norvegicus with 16 samples.

Results

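Genes of the wound matrix, of clotting control and of cell-surface proteolysis were followed in the rat diaphragm, namely Thbd, Ptx3, Thbs1, Adamts1, Cd44, Fn1, F3 and Plaur. All 8 were on the array, each with a single transcript cluster, out of 15037 gene symbols and 23188 clusters. They were chosen by earlier log2 differences of these data, in which Thbd and Ptx3 stood out between sham-operated and ventilated rats (S-V12/V12). That contrast, and the others that rest on the same high or low arrays, are therefore described for the 8 genes without a test. V12/CON and E-V12/S-V12 were tested but share a group with S-V12/V12, and E-V12/CON shares none. E-V12 rats had the same operation as S-V12 rats, however, so tests of the 8 genes in E-V12/CON are not free of the choice either. Which values put each of the other 6 genes on the list is not recorded.

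Male Wistar rats aged 14 to 16 weeks formed 4 groups of 4, and the diaphragm RNA of each rat was hybridized to a Clariom S array of its own, 16 in all. E-V12 rats were ventilated through a tracheostomy for 12 h, underwent an abdominal incision with electrodes placed at the diaphragm, and had the muscle stimulated electrically. S-V12 rats had the same ventilation and operation without current, V12 rats had the ventilation and tracheostomy alone, and CON rats were not ventilated and gave their diaphragm as soon as they were anaesthetized. S-V12 and E-V12 rats also breathed supplemental oxygen, so S-V12/V12 holds operation and oxygen together, and V12/CON holds ventilation, tracheostomy, hours of anaesthesia and elapsed time together. The methods say that tissue around the electrode was removed in preparing the specimen, and they do not settle whether that tissue was assayed or cut away. Values are the deposited log2 signals, levels are given as mean ± SD (n = 4 rats per group), and differences as the difference of means ± SE of a limma model over all 4 groups, with p adjusted by Benjamini and Hochberg over all clusters. A signal is said to be below background when it lies under the highest of the 23 background probe sets of its array, which ran between 6.39 and 7.20 on the 16 arrays. Between 33.0% and 40.9% of the clusters of an array lay above it. The 8 skeletal muscle markers averaged 19.22 to 19.60 on all 16 arrays.

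Clotting in an injured tissue starts when tissue factor, the product of F3, meets plasma. Thrombomodulin, the product of Thbd, sits on the endothelial surface, binds thrombin and turns it toward activating protein C, which shuts clotting down. The urokinase receptor encoded by Plaur gathers plasmin formation on the cell surface. Fibronectin (Fn1) and thrombospondin-1 (Thbs1) build the early wound matrix, the protease ADAMTS1 cleaves the proteoglycan versican within it, and pentraxin 3 (Ptx3) is a secreted pattern recognition protein that takes part in cross-linking hyaluronan, the sugar polymer to which the receptor CD44 binds.

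The sequence just upstream of the start site is shown for the 5 genes with an entry in the RefSeq promoter table (build GRCr8), because the group holds both genes with large and genes with small differences and the motifs searched are those of factors active in wounding. Each stretch of 250 bases runs 5′ to 3′ on the gene's strand and ends at the base before the start site, with the matches to 6 motifs in capitals.
Ptx3, chr2:152797313-152797562, plus strand: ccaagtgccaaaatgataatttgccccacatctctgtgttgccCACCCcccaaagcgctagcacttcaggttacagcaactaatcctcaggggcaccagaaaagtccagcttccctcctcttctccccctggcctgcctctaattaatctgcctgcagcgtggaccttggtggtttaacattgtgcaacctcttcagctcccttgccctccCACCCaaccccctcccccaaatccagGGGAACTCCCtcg
Thbs1, chr3:125510000-125510249, plus strand: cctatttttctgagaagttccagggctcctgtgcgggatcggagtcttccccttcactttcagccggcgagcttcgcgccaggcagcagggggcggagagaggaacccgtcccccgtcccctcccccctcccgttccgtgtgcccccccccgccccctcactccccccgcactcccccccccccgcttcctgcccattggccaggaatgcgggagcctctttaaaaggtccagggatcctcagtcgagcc
Adamts1, chr11:38427385-38427634, minus strand: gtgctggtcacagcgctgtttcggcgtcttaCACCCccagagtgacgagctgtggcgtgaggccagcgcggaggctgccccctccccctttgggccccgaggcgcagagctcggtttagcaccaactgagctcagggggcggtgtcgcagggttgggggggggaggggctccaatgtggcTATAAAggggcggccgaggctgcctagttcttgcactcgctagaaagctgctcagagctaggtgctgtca
Cd44, chr3:109699425-109699674, minus strand: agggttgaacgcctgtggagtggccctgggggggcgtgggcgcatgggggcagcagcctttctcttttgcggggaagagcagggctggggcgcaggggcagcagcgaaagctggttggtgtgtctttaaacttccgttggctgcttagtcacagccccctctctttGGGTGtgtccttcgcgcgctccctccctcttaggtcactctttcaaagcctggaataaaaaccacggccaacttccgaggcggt
Plaur, chr1:89181113-89181362, plus strand: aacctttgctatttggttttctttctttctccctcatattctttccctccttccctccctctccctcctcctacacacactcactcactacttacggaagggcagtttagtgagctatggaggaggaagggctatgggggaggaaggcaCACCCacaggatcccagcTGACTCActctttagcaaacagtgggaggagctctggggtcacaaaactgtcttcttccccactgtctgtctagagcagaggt

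The motifs searched on both strands were the AP-1 site TGANTCA, the NF-kB site (GGG, any 2 bases, TT, any base, CC), the Krüppel-like factor site CACCC, the hypoxia response element ACGTG, the TATA box TATAAA and the CArG box of serum response factor. Plaur held the AP-1 site at bases -83 to -77 from the start site, a motif that 6.34% of 33469 promoter windows of the same length hold. Ptx3 held the NF-kB site at -13 to -4 on the opposite strand (4.36% of windows), and Adamts1 held the TATA box at -70 to -65 (12.9%). The CACCC site was found in 4 of the 5 genes and in 49.2% of all windows, so it was common everywhere. The hypoxia response element (16.6% of windows) and the CArG box (1.5%) were found in 0 of the 5, and Thbs1 held none of the 6 motifs. A match is a description of the letters and not a measured binding site.

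Thbd had the widest difference between group means among the 8. Its log2 signal was 15.07, 14.38, 14.16 and 14.25 on the E-V12 arrays, 15.23, 14.62, 15.08 and 13.76 on the S-V12 arrays, 7.80, 9.63, 10.59 and 10.33 on the V12 arrays, and 6.06, 7.68, 7.76 and 7.03 on the CON arrays. The 8 operated rats were far above all others and overlapped each other, whereas the lowest V12 array lay only 0.03 above the highest CON array. Thbd rose by 2.45 ± 0.47 in V12/CON (5.48-fold, adjusted p = 0.000577), and V12 replicate 1 held this value down, since without it the difference was 3.05 (8.28-fold). The test named in the methods did not call this rise once p was adjusted over all clusters (adjusted p = 0.122). The paper's own rule, a fold of at least 2 and p under 0.05, names no such adjustment. By that rule 2 of the 8 genes were called higher in V12/CON, the same number as in the main model. Calls described below as lost by the methods' test were lost under the added adjustment. In S-V12/V12 the Thbd means were 14.67 ± 0.66 in S-V12 and 9.59 ± 1.26 in V12. The Thbd difference was 5.08 ± 0.47 or 33.9-fold (22.5-fold without V12 replicate 1). In bulk diaphragm RNA, more cells of a type that expresses a gene and more RNA per cell cannot be told apart.

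Stimulation did not move Thbd beyond its spread. The E-V12/S-V12 difference was -0.21 ± 0.47 (95% interval -1.17 to 0.76, adjusted p = 0.881). Against CON, E-V12 stood 7.33 ± 0.47 higher (161-fold, adjusted p = 5.52e-11).

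**Figure D1:**
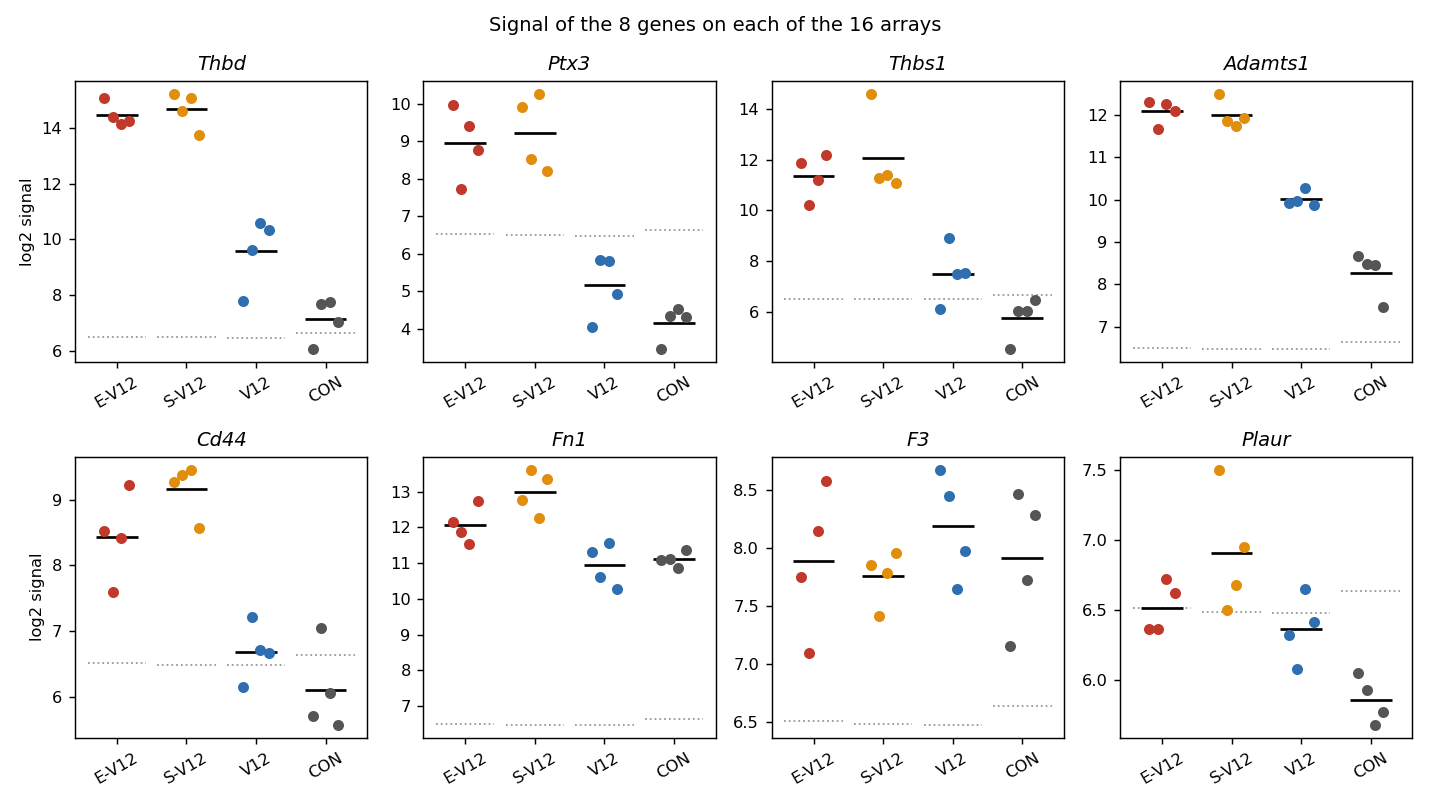
Log2 signal of the 8 genes on each array (points, 4 rats per group, groups from left to right E-V12, S-V12, V12 and CON) with the group mean (black bar) and the mean of the highest background signal in each group (dotted line). For Thbd, Ptx3, Thbs1, Adamts1 and Cd44 all 8 operated rats lie above all 8 other rats, while the F3 groups overlap throughout.

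F3, which encodes the trigger of clotting, showed no such pattern. The log2 signal of F3 was 7.75, 7.10, 8.15 and 8.58 in E-V12, 7.86, 7.42, 7.79 and 7.96 in S-V12, 8.68, 8.45, 7.65 and 7.98 in V12, and 7.16, 8.47, 7.73 and 8.29 in CON. All 16 arrays were above background and every pair of groups overlapped. The difference was 0.28 ± 0.30 in V12/CON (95% interval -0.35 to 0.91, adjusted p = 0.633), -0.43 ± 0.30 in S-V12/V12, 0.13 ± 0.30 in E-V12/S-V12 (interval -0.50 to 0.77) and -0.02 ± 0.30 in E-V12/CON (interval -0.65 to 0.61, adjusted p = 0.978). The 3 intervals leave room for changes of up to 0.91 in size. Between S-V12 and CON the difference was 7.54 for Thbd and -0.15 for F3.

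Ptx3 was above background in the operated rats only. On the arrays Ptx3 had log2 signals of 9.97, 7.71, 9.39 and 8.75 in E-V12 and 9.90, 8.51, 10.26 and 8.20 in S-V12, against 4.03, 5.84, 5.81 and 4.91 in V12 and 3.45, 4.34, 4.52 and 4.31 in CON. All V12 and CON arrays lay below background and all operated rats above it. The V12/CON difference of 0.99 ± 0.47 (adjusted p = 0.180) lies between signals that background also reaches, so no fold is given. S-V12 stood 4.07 ± 0.47 above V12, which is at least 6.69-fold when the V12 side is set to the lowest signal above background. E-V12 stood 4.80 ± 0.47 above CON (adjusted p = 6.56e-08, at least 4.99-fold). The E-V12/S-V12 difference of -0.26 ± 0.47 (95% interval -1.25 to 0.72, adjusted p = 0.847) was smaller than the spread within either group, where SDs were 0.97 in E-V12 and 1.02 in S-V12.

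Cd44 followed the same order of groups with smaller steps. The arrays gave Cd44 log2 signals of 8.52, 7.59, 8.41 and 9.23 in E-V12, 9.27, 9.38, 9.46 and 8.57 in S-V12, 6.15, 7.22, 6.71 and 6.66 in V12, and 5.71, 7.04, 6.06 and 5.57 in CON. V12 and CON overlapped through CON replicate 2, and the difference of 0.59 ± 0.33 did not pass the test (adjusted p = 0.268). S-V12 stood 2.49 ± 0.33 above V12 (5.6-fold) and E-V12 stood 2.34 ± 0.33 above CON (5.06-fold, adjusted p = 1.04e-05), although only 1 of 4 CON arrays was above background. Under stimulation Cd44 averaged 8.43 ± 0.67 in E-V12 and 9.17 ± 0.41 in S-V12. That difference of -0.73 ± 0.33 (95% interval -1.42 to -0.05) had an unadjusted p of 0.0366 and an adjusted p of 0.258, so it was not called.

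Thbs1 had the most uneven S-V12 group. Thbs1 had log2 signals of 11.89, 10.22, 11.22 and 12.18 in E-V12, 14.62, 11.27, 11.40 and 11.10 in S-V12, 6.08, 8.90, 7.49 and 7.53 in V12, and 4.51, 6.02, 6.02 and 6.46 in CON. S-V12 replicate 1 stood far above the other 3 arrays of its group, which lay close together. The S-V12/V12 difference was 4.6 ± 0.64 (24.2-fold) with that array and 3.76 (13.5-fold) without it. In V12/CON the difference of 1.75 ± 0.64 just missed the threshold (adjusted p = 0.0677) and passed it when V12 replicate 1 was left out (adjusted p = 0.0223), when S-V12 replicate 1 was left out (0.0138), and in a model of the 2 groups alone (0.0229). E-V12 stood 5.63 ± 0.64 above CON (49.4-fold, adjusted p = 5.44e-07, with 1 of 4 CON arrays above background). The E-V12/S-V12 difference of -0.72 ± 0.64 had a wide interval, from -2.05 to 0.61 (adjusted p = 0.639), and was 0.12 without S-V12 replicate 1.

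Adamts1 was higher at both steps, with group ranges that did not touch. The log2 signal of Adamts1 was 12.30, 11.66, 12.26 and 12.08 in E-V12, 12.49, 11.85, 11.74 and 11.92 in S-V12, 9.92, 9.97, 10.27 and 9.87 in V12, and 8.66, 8.48, 8.47 and 7.48 in CON. No V12 array overlapped CON and no operated rat overlapped V12. Adamts1 rose by 1.73 ± 0.24 in V12/CON (3.32-fold, adjusted p = 1.81e-05) and stayed called in all 16 fits that left out 1 array, with differences of 1.47 to 1.86. S-V12 stood 1.99 ± 0.24 above V12 (3.98-fold), and E-V12 stood 3.80 ± 0.24 above CON (13.9-fold, adjusted p = 5.52e-11). Stimulation left it within 0.08 ± 0.24 of the sham level (95% interval -0.42 to 0.58, adjusted p = 0.921), the narrowest interval but that of Plaur among the 8.

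Fn1 was higher in S-V12 than in V12 without overlap, whereas the V12 mean was slightly below that of CON. Fn1 signals were 12.14, 11.88, 11.54 and 12.75 in E-V12, 12.76, 13.62, 12.26 and 13.36 in S-V12, 11.30, 10.62, 11.57 and 10.29 in V12, and 11.09, 11.13, 10.86 and 11.38 in CON. The V12/CON difference was -0.17 ± 0.31 (adjusted p = 0.785), whereas S-V12 stood 2.06 ± 0.31 above V12 (4.16-fold). Fn1 averaged 12.08 ± 0.51 in E-V12 and 13 ± 0.61 in S-V12. That difference of -0.92 ± 0.31 (95% interval -1.56 to -0.29) was the largest in size of the 8 in E-V12/S-V12, with an unadjusted p of 0.00641 and an adjusted p of 0.106, and it passed only when arrays were weighted by quality (-0.98, adjusted p = 0.0430). E-V12 remained 0.96 ± 0.31 above CON (1.95-fold, adjusted p = 0.0244), a call that was lost by the methods' t-test (0.0740), by quantile normalization (0.0508) and without CON replicate 3 (0.0723), E-V12 replicate 1 (0.0518) or the fourth rat of E-V12 (0.106).

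Plaur stayed close to background. Plaur signals were 6.36, 6.36, 6.72 and 6.62 in E-V12, 7.50, 6.50, 6.68 and 6.95 in S-V12, 6.32, 6.08, 6.65 and 6.41 in V12, and 6.05, 5.93, 5.68 and 5.77 in CON. All 4 S-V12 arrays, 2 E-V12 arrays, 2 V12 arrays and 0 CON arrays were above background. The difference was 0.51 ± 0.21 in V12/CON (adjusted p = 0.110) and 0.54 ± 0.21 in S-V12/V12, where the groups overlapped. Plaur passed the test in E-V12/CON (0.66 ± 0.21, adjusted p = 0.0243), but not without CON replicate 3 or 4 or E-V12 replicate 3 or 4 (0.0577 to 0.0778). With CON set to the lowest signal above background the bound was 0.920-fold, which is not a rise, so no fold is given. The E-V12/S-V12 difference was -0.39 ± 0.21 (95% interval -0.83 to 0.04, adjusted p = 0.364).

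Counted over the list, 2 of the 8 genes were called higher in V12/CON, Thbd and Adamts1, where 7.68% of all clusters were called higher, and 5 were higher at an unadjusted p under 0.05 (13.7% of all clusters). V12 lay above CON without overlap for 3 of 8 (7.99% of all clusters). The 5 include Ptx3, below background on all V12 and CON arrays, and Plaur, below it on all CON arrays. The 3 include Thbd and Plaur, each with a gap of only 0.03. The V12 arrays also belong to S-V12/V12, so nothing is read from these V12/CON counts. In S-V12/V12, the comparison behind the list, 6 of 8 lay higher without overlap (10.6% of all clusters), all but F3 and Plaur, and nothing is read from that count. In E-V12/CON 7 were called higher (10.9% of all clusters), the same 7 without overlap (11.2%), with F3 the exception. E-V12 rats also had the operation, so nothing is read from that count either. The median difference of the 8 genes was 0.79 in V12/CON, 2.27 in S-V12/V12 and 3.07 in E-V12/CON, beside medians of 0.03, -0.05 and 0.01 over all clusters. The choice of the genes bears on these medians too.

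No difference under stimulation passed the test. In E-V12/S-V12 limma called 0 of 8 (2.71% of all clusters were called in either direction), 2 had an unadjusted p under 0.05 (Cd44 and Fn1, beside 16.6% of all clusters in either direction), the methods' t-test called 0 and array weighting called 1 (Fn1). E-V12 and S-V12 overlapped for all 8, where 6.11% of all clusters lay higher and 7.35% lower without overlap. The median difference was -0.33 for the 8 genes and 0.02 for all clusters. The S-V12 arrays of this comparison are those behind the choice of the genes, so nothing is read from that median. E-V12 lay above V12 without overlap for 5 of 8 (7.45% of all clusters), and Fn1, at 1.13 ± 0.31 above V12, was an exception alongside F3 and Plaur.

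**Figure D2:**
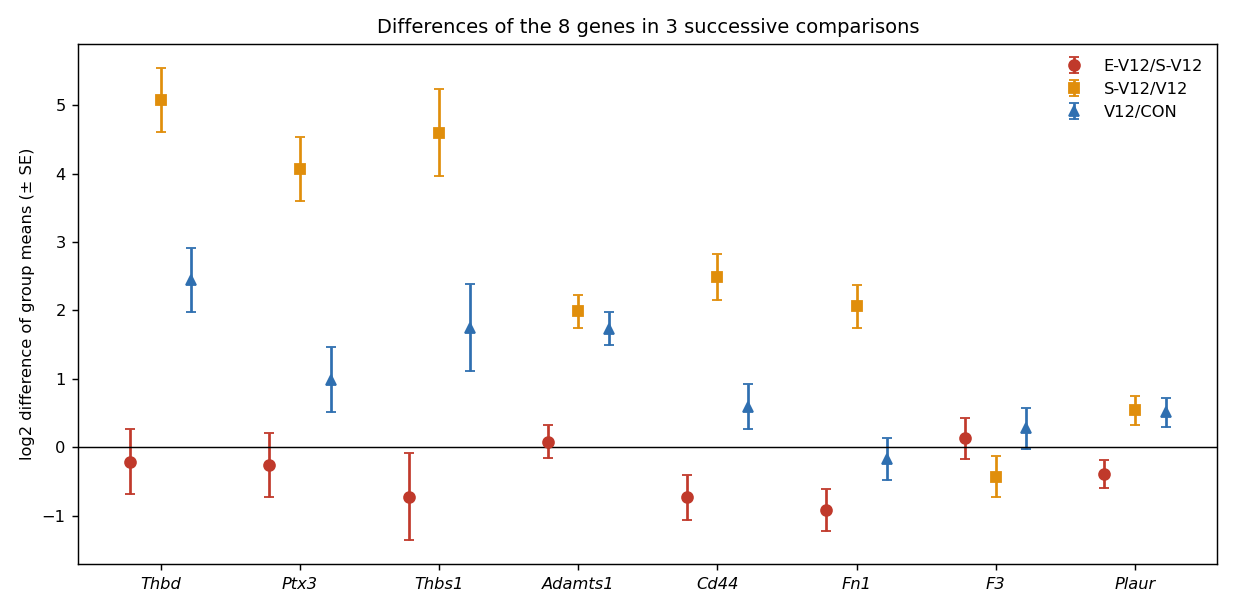
Log2 difference of group means (± SE, 4 rats per group) for each of the 8 genes in E-V12/S-V12 (red circles), S-V12/V12 (orange squares) and V12/CON (blue triangles). The S-V12/V12 difference is the highest of the 3 for 7 genes, up to 5.08 for Thbd, and the E-V12/S-V12 differences run between -0.92 and 0.13.

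The part of the S-V12/CON log2 difference that was already present in V12 differed from gene to gene. Of that log2 difference, V12 held 46.4% for Adamts1, 32.6% for Thbd, 27.6% for Thbs1 and 19.1% for Cd44. For Fn1 the V12 mean was below CON (-9.15%). Shares of log2 differences are not shares of the rise in signal. Thbd stood 5.48-fold above CON in V12 and 186-fold in S-V12, and Adamts1 stood 3.32-fold and 13.2-fold above it. These shares are descriptions of means, and those of Thbs1 and Cd44 rest on CON groups with 1 of 4 arrays above background. None is given for Ptx3 and Plaur, whose CON arrays all lay below it. Single rats also stood out across genes. V12 replicate 1 and S-V12 replicate 4 were each the lowest of their group for Thbd, Ptx3, Thbs1 and Cd44, CON replicate 1 was the lowest for Thbd, Ptx3, Thbs1 and F3, and E-V12 replicate 2 was the lowest of its group for 6 of the 8, all but Thbd and Fn1.

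Genes whose profile over the 16 arrays lay closest were ranked by the root mean square difference of their centred log2 signals. For Thbd these were Slc39a14, a zinc transporter (0.94), Srxn1, which encodes sulfiredoxin (0.97), and Slc7a5, a transporter of large amino acids (1.09), against a median of 3.33 over all other symbols. For Thbs1 they were Socs3, an inhibitor of cytokine signalling (0.99), Slc7a5 (1.04) and the transcription factor gene Klf6 (1.05). Ptx3 lay closest to Scn3b (0.74), Ehd4 (0.81) and Rrad (0.82). Adamts1 lay within 0.38 of Slc19a1, a folate carrier, whose means were 9.08 in E-V12, 9.30 in S-V12, 7.36 in V12 and 5.38 in CON. Fn1 lay closest to Hs6st2 (0.35), whose means of 4.04 to 5.94 lay below the background range, Anpep (0.40) and Nt5e (0.43). Nt5e, the ecto-enzyme that makes adenosine, averaged 7.29 in E-V12, 8.20 in S-V12, 6.16 in V12 and 5.89 in CON. Within the list, the profiles of Ptx3 and Thbs1 differed by 0.91, those of Thbd and Thbs1 by 1.08, and those of Adamts1 and Cd44 by 0.73. The closest pair was F3 and Plaur (0.67), both with small differences between groups, and Fn1 and Plaur differed by 0.74. All of these are descriptions over the 16 arrays, which include the arrays behind the list.

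The genes that surround the 8 in their pathways were then read from 7 lists of 121 genes, of which 108 were measured. In V12/CON 25 rose and 9 fell, together 34 of 108 beside 16.3% of all clusters. In S-V12/V12 31 rose and 2 fell, beside 14.7% of all clusters, and in E-V12/CON 36 rose and 11 fell, beside 23.5%. In E-V12/S-V12 0 rose and 2 fell, Jun and Srf, beside 2.71%. The lists were drawn up with earlier results of these data known, so nothing is read from these shares.

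Around Thbd and F3, 14 genes of the coagulation system were measured. In V12/CON 2 rose and 0 fell, in S-V12/V12 1 rose and 1 fell, in E-V12/S-V12 0 were called, and in E-V12/CON 3 rose (Procr, Tfpi2 and F2r) and 2 fell (Tfpi and Anxa5). Procr, the endothelial receptor that presents protein C to the thrombin and thrombomodulin complex, averaged 6.23 ± 0.51 in E-V12, 6.23 ± 0.31 in S-V12, 5.67 ± 0.47 in V12 and 4.52 ± 0.46 in CON. It rose by 1.15 ± 0.28 in V12/CON (adjusted p = 0.00504, lost by the methods' t-test at 0.107), with all V12 and CON arrays below background. In S-V12/V12, where Thbd stood 5.08 higher, the Procr difference was 0.56 ± 0.28 (adjusted p = 0.197). Tfpi, the plasma inhibitor of tissue factor, averaged 10.48 ± 0.42 in E-V12 and 11.19 ± 0.34 in CON and fell by 0.70 in E-V12/CON (adjusted p = 0.0307), with a difference of -0.22 ± 0.23 in S-V12/V12 (adjusted p = 0.615).

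Around Plaur, activators and inhibitors of plasminogen moved mainly in V12/CON, where 2 of 10 measured genes rose and 2 fell. Plat, the tissue-type plasminogen activator, averaged 11.83 ± 0.39 in V12 and 9.65 ± 0.75 in CON and rose by 2.19 ± 0.43 (adjusted p = 0.000826). Serpine2, which encodes an inhibitor of thrombin and plasminogen activators, averaged 8.40 ± 0.44 in V12 and 10.57 ± 0.35 in CON and fell by 2.17 on the log2 scale (adjusted p = 6.38e-07). Plat was not called higher or lower in S-V12/V12 (-0.53 ± 0.43, adjusted p = 0.476), and neither was Serpine2 (-0.39 ± 0.24, adjusted p = 0.318). Lrp1, a receptor that clears protease and inhibitor complexes, rose in both steps, by 2.02 ± 0.26 in V12/CON (adjusted p = 5.75e-06) and by 1.04 ± 0.26 in S-V12/V12 (0.00784, lost by the methods' t-test at 0.0998). Anxa2, a plasminogen-binding annexin, averaged 10.97 ± 0.30 in S-V12 and 9.42 ± 0.55 in V12 and rose by 1.56 ± 0.39 in S-V12/V12 (adjusted p = 0.00879). The urokinase gene Plau, whose product Plaur binds, was not called in S-V12/V12 (-0.10 ± 0.43, adjusted p = 0.917).

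**Figure D3:**
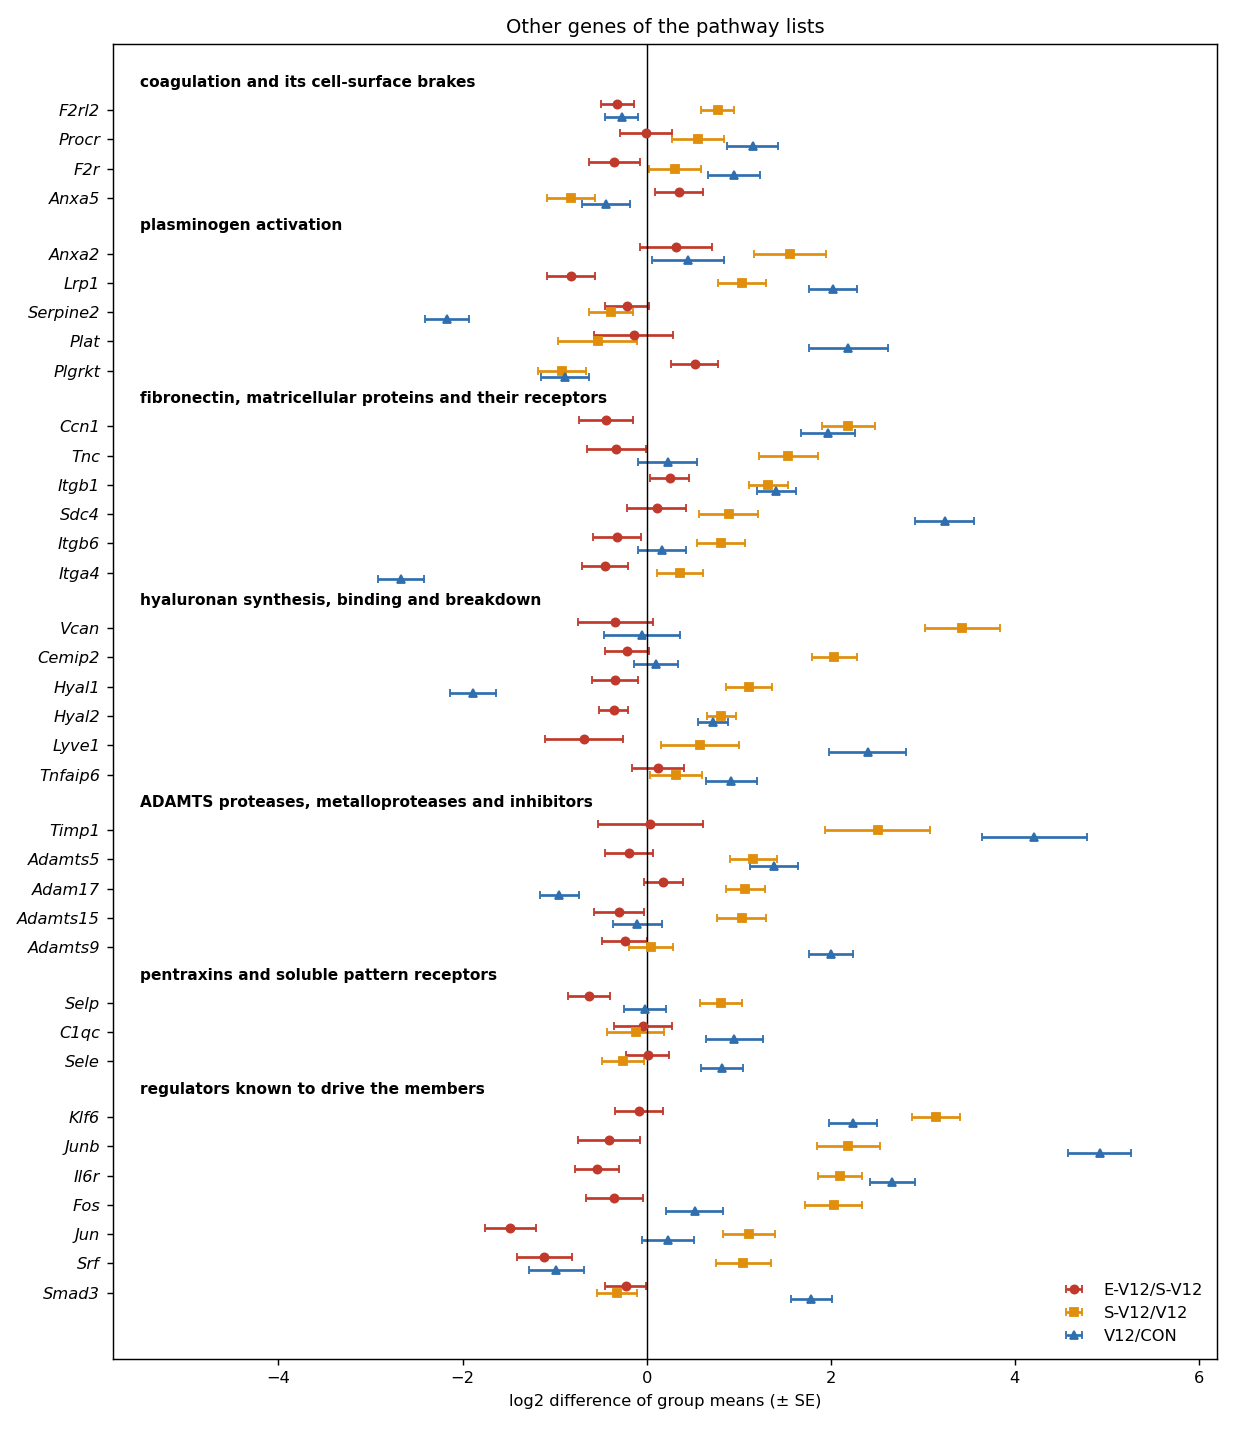
Log2 difference of group means (± SE, 4 rats per group) of genes called in V12/CON, S-V12/V12 or E-V12/S-V12, up to 4 per list and comparison, in E-V12/S-V12 (red circles), S-V12/V12 (orange squares) and V12/CON (blue triangles). Serpine2 and Itga4 are lower in V12/CON by over 2, Vcan and Cemip2 are higher in S-V12/V12 by 3.43 and 2.04 and at -0.34 to 0.10 in the other 2, and the 2 genes called in E-V12/S-V12 are Jun and Srf.

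Of 19 measured receptors and partners of fibronectin and thrombospondin, 3 rose and 1 fell in V12/CON and 5 rose in S-V12/V12. Spp1, counted among the 5, was below background on all 16 arrays. Itgb1, the beta subunit shared by the fibronectin-binding integrins, averaged 17.58 ± 0.25 in E-V12, 17.33 ± 0.08 in S-V12, 16.01 ± 0.37 in V12 and 14.60 ± 0.28 in CON. It rose by 1.41 ± 0.21 in V12/CON (adjusted p = 3.43e-05) and by 1.32 ± 0.21 in S-V12/V12 (0.00013). The heparan sulfate proteoglycan gene Sdc4 averaged 11.82 ± 0.31 in V12 and 8.57 ± 0.86 in CON and rose by 3.24 ± 0.32 in V12/CON (adjusted p = 1.26e-07). Itga4, an alpha subunit that binds fibronectin on leukocytes and other cells, averaged 6.30 ± 0.54 in V12, with 2 of 4 arrays above background, and 8.97 ± 0.36 in CON, and fell by 2.67 (adjusted p = 5.53e-08). Other matricellular genes that rose in S-V12/V12 were Ccn1, Tnc and Spp1, the last by 0.75 ± 0.25 (adjusted p = 0.0465). Ccn1 rose by 2.19 ± 0.29 (adjusted p = 2.27e-05) after a rise of 1.97 ± 0.29 in V12/CON (3.67e-05), and the tenascin-C gene Tnc rose by 1.54 ± 0.32 (0.00199), with all V12 and CON arrays below background and a fold of at least 1.40.

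Among genes of hyaluronan and its binding partners, 4 of 16 measured rose and 1 fell in V12/CON, and 5 rose in S-V12/V12. Tnfaip6, counted among the 4, was below background on all 16 arrays. Vcan, the proteoglycan that ADAMTS1 cleaves and that binds hyaluronan, averaged 7.94 ± 1.24 in E-V12, 8.28 ± 0.41 in S-V12, 4.85 ± 0.54 in V12 and 4.90 ± 0.30 in CON. The V12 and CON arrays all lay below background, so its S-V12/V12 rise of 3.43 ± 0.41 (adjusted p = 7.16e-06) is at least 3.49-fold. Cemip2, a cell-surface protein tied to hyaluronan breakdown in mice, averaged 13.17 ± 0.32 in S-V12 and 11.14 ± 0.34 in V12 and rose by 2.04 ± 0.24 (adjusted p = 5.56e-06), against a V12/CON difference of 0.10 ± 0.24. The hyaluronidase gene Hyal1 averaged 11.96 ± 0.30 in E-V12, 12.30 ± 0.11 in S-V12, 11.18 ± 0.44 in V12 and 13.08 ± 0.56 in CON. It fell by 1.89 in V12/CON (adjusted p = 1.06e-05) and rose by 1.11 ± 0.25 in S-V12/V12 (0.00403). The synthase gene Has2 was below background on all 16 arrays.

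Of 15 measured ADAMTS proteases, metalloproteases and their inhibitors, 5 rose and 1 fell in V12/CON and 4 rose in S-V12/V12. Mmp14, counted among the 5, was below background on all V12 and CON arrays. Timp1, an inhibitor of metalloproteases, averaged 11.72 ± 1.17 in E-V12, 11.68 ± 0.52 in S-V12, 9.17 ± 1.63 in V12 and 4.96 ± 0.34 in CON. It rose by 4.21 ± 0.57 in V12/CON (adjusted p = 1.28e-05), at least 5.79-fold because all CON arrays were below background. It rose again by 2.51 ± 0.57 in S-V12/V12 (adjusted p = 0.00411), a call that the methods' t-test lost (0.133). Without V12 replicate 1 the V12/CON difference of Timp1 was 4.99 and its S-V12/V12 difference 1.73. Adamts5 followed Adamts1 over both steps, with 1.38 ± 0.26 in V12/CON (adjusted p = 0.000538, lost by the methods' t-test at 0.0639) and 1.16 ± 0.26 in S-V12/V12 (0.00345). Adamts9 averaged 10.35 ± 0.49 in S-V12, 10.30 ± 0.26 in V12 and 8.31 ± 0.30 in CON, a rise of 2.0 ± 0.24 in V12/CON (adjusted p = 2.59e-06) with a difference of 0.05 ± 0.24 in S-V12/V12. Of 11 measured pentraxins, soluble pattern receptors and selectins, 2 rose in V12/CON and 1 rose in S-V12/V12, and each of these 3 calls was lost under at least 1 left-out array.

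Among factors and cytokine receptors known to act on the 8 genes, 13 of 23 measured genes rose and 0 fell in S-V12/V12, and 7 rose and 4 fell in V12/CON. Il6, counted among the 13, was below background on all 16 arrays. This list too was drawn up with earlier results known, and whether its genes act on the 8 here was not tested. Klf6 averaged 11.73 ± 0.43 in E-V12, 11.81 ± 0.08 in S-V12, 8.67 ± 0.62 in V12 and 6.42 ± 0.29 in CON, rising by 2.24 ± 0.26 in V12/CON (adjusted p = 1.64e-06) and by 3.14 ± 0.26 in S-V12/V12 (3.33e-07). Il6r, the interleukin-6 receptor gene, rose by 2.67 ± 0.24 in V12/CON (adjusted p = 2.81e-08) and by 2.10 ± 0.24 in S-V12/V12 (4.24e-06). The AP-1 gene Fos averaged 10.15 ± 0.30 in E-V12, 10.50 ± 0.46 in S-V12, 8.47 ± 0.49 in V12 and 7.95 ± 0.72 in CON and rose by 2.03 ± 0.31 in S-V12/V12 (adjusted p = 9.55e-05), with a difference of 0.52 ± 0.31 in V12/CON (0.305). Klf2 and Klf4, which drive THBD in human endothelial cells, were below background on all 16 arrays. Jun averaged 9.69 ± 0.26 in E-V12 and 11.17 ± 0.25 in S-V12 and fell by 1.48 in E-V12/S-V12 (adjusted p = 0.00909). Srf averaged 9.10 ± 0.33 in E-V12 and 10.21 ± 0.24 in S-V12 and fell by 1.11 (adjusted p = 0.0453), a call that was lost by the methods' t-test (0.0570), by quantile normalization (0.0595) and when any 1 of the 8 operated rats was left out.

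Markers of the cell types that could carry these transcripts were read on the same arrays. Of 8 endothelial markers 0 were called in S-V12/V12, 2 rose (Pecam1 and Esam) and 1 fell (Emcn) in V12/CON, and Pecam1 fell in E-V12/S-V12. Their summed log2 level ran between 10.36 and 10.80 in E-V12, 10.80 and 11.31 in S-V12, 10.23 and 11.94 in V12, and 11.32 and 11.87 in CON. The mean over the 8 markers, in which the brightest marker weighs less, was 7.00 to 7.31 in E-V12, 7.37 to 7.85 in S-V12, 6.99 to 8.17 in V12 and 7.34 to 7.93 in CON, so S-V12 overlapped CON by that measure. In E-V12/CON Esam rose and Cdh5, Tek, Kdr and Emcn fell, and Tie1 was below background on every array. Of 6 macrophage markers, 1 rose in S-V12/V12 (Itgam), while in V12/CON 3 rose (Cd68, Cd163 and Mrc1) and 1 fell (Adgre1, below background on all arrays), and in E-V12/CON 4 rose (Cd68, Cd163, Mrc1 and Itgam). Their summed level ran between 10.38 and 11.49 in E-V12, 10.36 and 11.63 in S-V12, 9.66 and 10.96 in V12, and 8.31 and 9.39 in CON. The part of endothelial cells and macrophages in the results for the 8 genes was not tested.

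The 5 measured neutrophil markers were all below background in V12 and CON, and 0 were called in S-V12/V12. Their summed level was 7.35 to 10.43 in E-V12, 7.38 to 7.91 in S-V12, 6.96 to 7.38 in V12, and 6.68 to 6.89 in CON, with S100a8 and S100a9 higher in E-V12/CON. E-V12 replicate 1 had a mean of 6.67 over these markers, against 4.62 to 5.23 on the other E-V12 arrays, and it was also the highest E-V12 array for Thbd, Ptx3 and Adamts1. Of 5 fibroblast markers, Pdgfra rose in S-V12/V12, and the list ran between 16.96 and 17.65 in S-V12 and between 16.49 and 17.18 in V12. In E-V12/CON Pdgfra and Dcn rose and Lum, Col1a1 and Col1a2 fell. The mesothelium lines the surface that the incision opens, and 0 of its 4 measured markers were called in any of the 4 comparisons, with summed levels of 10.43 to 11.48 in S-V12 and 11.54 to 11.95 in V12. The 4 measured platelet markers, Pf4, Ppbp, Gp9 and Treml1, were below background on all 16 arrays. Of 6 smooth muscle markers, Myh11 and Tagln fell in V12/CON, these and Rgs5 fell in E-V12/CON, and 0 were called in S-V12/V12. Of 8 skeletal muscle markers 0 were called in V12/CON and 1 fell in S-V12/V12 (Tnnt1). Acta1, Ckm and Myh1 averaged 19.85 to 19.93 in every group, at the top of the signal range, where a change may not show. The part of neutrophils, fibroblasts and smooth muscle in the results was not tested.

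**Figure D4:**
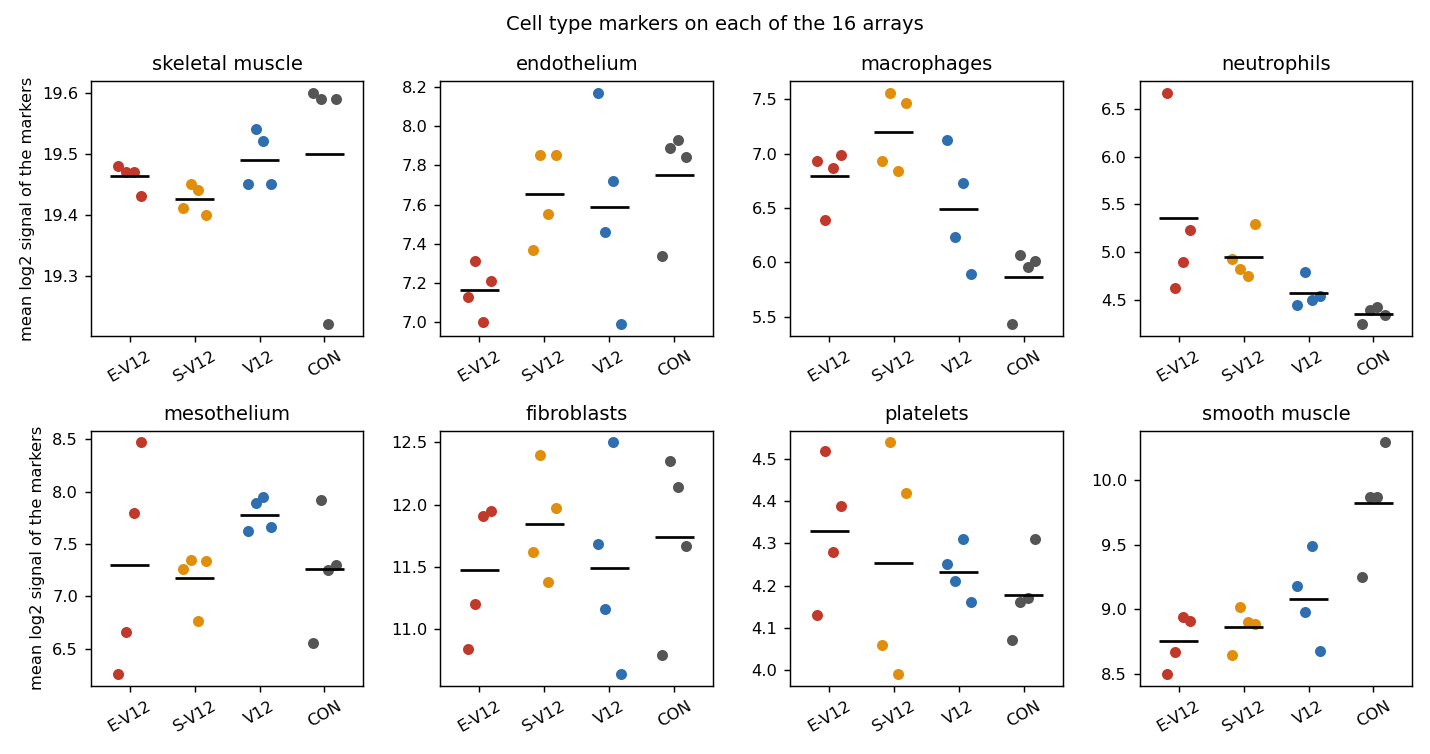
Mean log2 signal of the markers of 8 cell types on each array (points, 4 rats per group, groups from left to right E-V12, S-V12, V12 and CON) with the group mean (black bar). Macrophage markers average 6.84 to 7.56 in S-V12, 5.89 to 7.12 in V12 and 5.43 to 6.07 in CON, and platelet markers stay between 3.99 and 4.54 throughout.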

How the data were processed

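The data are 16 Clariom S arrays of diaphragm RNA, 4 rats in each of E-V12, S-V12, V12 and CON, each rat separate per the labels. The values deposited by the authors are log2 signals per transcript cluster, scaled to total array intensity and summarized by SST-RMA in Transcriptome Analysis Console 4.0, and they were used as they stand. The sources used here do not give the genome build of the array. From 24834 table entries, 1646 control probe sets were removed, which left 23188 clusters to test, 15049 with 1 symbol, 0 with several and 8139 with none. Array medians lay between 5.57 and 5.73. The small number of arrays, 4 per group, limits the precision. No 2 arrays of a group held the same values.

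All 4 group means entered 1 limma model (version 3.58.1, R 4.3.3) with empirical Bayes variances and two-sided tests. Calls were made at an adjusted p under 0.05, by Benjamini-Hochberg over all clusters. Tables were made with Python 3.11.15 and pandas 2.3.3. A bound ("at least") sets a group that is below background on all arrays to the higher of its own signal and the lowest signal above background, per array. The genes and lists were chosen with earlier results of these data known. Named genes of the lists were those called, up to 4 per list and comparison by adjusted p, with the receptors, substrates and regulators closest to the 8 genes, and those printed were selected with their values in view. On simulated data for E-V12/CON over 23188 clusters, 50.0% of 100 clusters with a log2 change of 1 and 97.0% of 100 with a change of 2 were recovered, with 3 false calls. The simulation used normal noise and equal group means for all other clusters, whereas 23.5% of the real clusters were called in E-V12/CON. These rates therefore describe that setting only. Alternatives were a required fold of 2, the t-test named in the methods (adjusted, or unadjusted with a fold of 2), a model of only the 2 groups, array weights, trended robust variances, a filter on the lowest 25% of mean signal, centring on array medians, quantile normalization, a single cluster for each symbol, the replicate number as a block, and each array left out.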

Additional observations from a re-analysis of the deposited data

Results flagged for a closer look

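Among 72 groups of 4 arrays examined for a single array far from the other 3, 5 were found, where chance gives about 1 in 20. The Thbs1 signal of S-V12 replicate 1 was 14.62, against 11.10 to 11.40 on the other S-V12 arrays. The Adamts1 signal of CON replicate 4 was 7.48, against 8.47 to 8.66 on the other CON arrays, and without that rat the V12/CON difference was 1.47. Itga5, which encodes the alpha subunit of the fibronectin receptor, had 7.11 on V12 replicate 4, against 7.58 to 7.63 on the other V12 arrays. Klf2 had 6.40 on E-V12 replicate 4, against 4.57 to 4.82 on the other E-V12 arrays, and 5.49 on CON replicate 2, against 4.78 to 4.88 on the other CON arrays, all below background.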

How the results depend on the processing

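With an added fold of 2, the clusters called were 1818 for V12/CON (3791 by limma), 1423 for S-V12/V12 (3410), 319 for E-V12/S-V12 (628) and 2760 for E-V12/CON (5448). The methods' t-test with adjustment called 1482 for V12/CON and 3534 for E-V12/CON, and unadjusted with a fold of 2 it called 1766 for V12/CON, 1429 for S-V12/V12 and 2695 for E-V12/CON. For E-V12/S-V12 the count was 1316 with the 2 groups alone and 1541 with array weights. Of the 8 genes, the adjusted t-test called 1 for V12/CON in place of 2, and array weights called 1 for E-V12/S-V12 in place of 0. Of the 108 pathway genes, 34 were called for V12/CON, against 22 with a fold of 2, 19 by the adjusted t-test and 22 by the unadjusted t-test with a fold of 2. For E-V12/S-V12, 2 were called, against 1 by the adjusted t-test, 4 with array weights and 1 after quantile normalization. For E-V12/CON, 47 were called, against 31 by the adjusted t-test. The causes were not tested.

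When each array was left out in turn, clusters called ran between 3073 and 3727 for V12/CON, 2701 and 3843 for S-V12/V12, 74 (without E-V12 replicate 3) and 1182 (without CON replicate 1) for E-V12/S-V12, and 4684 and 5491 for E-V12/CON. The 8 genes called ran between 2 and 3 for V12/CON, 0 and 0 for E-V12/S-V12, and 5 and 7 for E-V12/CON, and their median S-V12/V12 difference ran between 2.21 and 2.38. Pathway genes called ran between 28 and 35 for V12/CON, 28 and 36 for S-V12/V12, 1 and 3 for E-V12/S-V12, and 44 and 49 for E-V12/CON.

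Signs turned for differences that had not passed the test when single arrays were left out. For E-V12/S-V12, Ptx3 ran between -0.60 and 0.15 (0.08 without S-V12 replicate 3), Thbs1 between -1.05 and 0.12, Adamts1 between -0.01 and 0.24, and F3 between -0.09 and 0.40. For E-V12/CON, F3 ran between -0.27 and 0.25 (0.17 and 0.11 without CON replicates 2 and 4, 0.03 without E-V12 replicate 1) and was 0.03 after quantile normalization. Fn1 for V12/CON ran between -0.38 and 0.04. Plau for S-V12/V12 ran between -0.45 and 0.39 (0.01 without V12 replicate 3, 0.05 without S-V12 replicate 1) and was 0.10 with array weights. Of 800 values of the 8 genes under an alternative, 775 kept direction and side of the threshold.

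Replicate numbers are shared by the groups, and same-numbered arrays deviated together with correlations of -0.0841 to 0.111. In V12/CON each V12 array correlated best with the CON array of its own number (0.0245 to 0.111). Elsewhere this held only for replicate 1 in E-V12/CON. The labels do not say what the numbers stand for, and the main model left them out. With the replicate number as a block, limma called 3721 clusters for V12/CON, 3399 for S-V12/V12, 673 for E-V12/S-V12 and 5323 for E-V12/CON, and 2, 0 and 7 of the 8 genes for V12/CON, E-V12/S-V12 and E-V12/CON. C1qc lost its V12/CON call under the block (adjusted p = 0.0567), which changed no other call of the 8 genes or the named pathway genes. Genes near background, such as Ptx3 in V12 and CON and Plaur in all groups, limit what V12/CON can show.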

Other observations

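Several pathway genes not described above also rose in S-V12/V12. Egr1, an immediate early transcription factor gene, rose by 3.33 in S-V12/V12 (adjusted p = 0.000686) after 2.51 in V12/CON (0.00587). Hif1a, which encodes the oxygen-regulated subunit of hypoxia-inducible factor, rose by 1.34 in S-V12/V12 (adjusted p = 0.00121), with a difference of 0.51 in V12/CON (0.222). The oncostatin M receptor gene Osmr rose by 1.48 in S-V12/V12 (adjusted p = 0.000249) and by 1.87 in V12/CON (8.21e-06). Ugdh, which makes the UDP-glucuronate from which hyaluronan is built, rose by 1.06 in S-V12/V12 (adjusted p = 0.00726) and by 0.79 in V12/CON (0.0407). Adam17, a sheddase, fell by 0.95 in V12/CON (adjusted p = 0.00199, lost by the methods' t-test at 0.0807) and rose by 1.07 in S-V12/V12 (0.000977).

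Tgfb2 and Tgfb3, ligands that activate fibronectin synthesis in many cells, were lower in V12/CON. Tgfb2 fell by 1.39 in V12/CON (adjusted p = 0.00125) and Tgfb3 by 0.85 (0.0141), and neither passed the test in S-V12/V12 (0.67, adjusted p = 0.128, for Tgfb2 and -0.16, adjusted p = 0.736, for Tgfb3). Smad3, a mediator of their signal, rose by 1.79 in V12/CON (adjusted p = 2.98e-06).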
